A study of Mus musculus with 12 samples.

Results

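The interphotoreceptor matrix genes examined here are Impg1, Impg2 and Rbp3, 3 of the 53707 genes in the gene table of an RNA-seq experiment on mouse retinal explants. They were chosen by symbol, because their products are characteristic proteins of this matrix, and were found by the Ensembl identifiers that the annotation gives for these symbols. All 3 passed the filter on low counts. Explants are whole retinas kept in culture medium after dissection. They came from wild-type C57BL/6J mice at postnatal day 28, were freed of the sclera and the retinal pigment epithelium, and were held for 48 hours in Neurobasal-A medium with B27 and N2 supplements and either 5 mM or 25 mM glucose. Each condition had 3 biological replicates, each with 2 technical replicates, which gave 12 libraries. The first technical replicates carry the batch label 1 and the second carry the batch label 2, so each batch holds 3 libraries of each condition.

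What made a biological replicate separate (animal, retina or culture) and what was repeated for a technical replicate are not given in the sources used here, so the tests below measure the spread between these samples, which may be partly technical. The question put to these samples was which transcripts differ in level with the glucose concentration of the medium. The libraries held 17998905 to 36692484 estimated counts at 5 mM and 14815285 to 23129541 at 25 mM. Mitochondrial genes took 5.91% to 11.8% of a library, apart from 15.4% in the first technical replicate of replicate 2 at 25 mM, which was also the library with the fewest counts. Values are given as CPM, which are counts scaled to a common library size, here after TMM scaling for differences in composition.

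The interphotoreceptor matrix is the extracellular material that surrounds photoreceptor outer segments and fills the space up to the retinal pigment epithelium. Impg1 and Impg2 encode proteoglycans of this matrix that bind hyaluronan, and the product of Impg2 is anchored in the photoreceptor membrane before it is cleaved. Rbp3 encodes the interphotoreceptor retinoid-binding protein, which photoreceptors secrete and which carries retinoids between photoreceptors, pigment epithelium and Mueller glia. Variants in each of these genes are known causes of inherited retinal disease in humans.

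Impg1 (ENSMUSG00000032343) lies on the reverse strand of chromosome 9 of GRCm38, from 80313330 to 80465481, and has 3 annotated transcripts, all protein-coding. An annotated gene on the opposite strand, Gm18292, lies within its span and shares 0 exonic bases with it. Impg2 (ENSMUSG00000035270) lies on the forward strand of chromosome 16, from 56204313 to 56273756, and has 4 transcripts, of which Impg2-201 and Impg2-203 are annotated as processed transcripts without a coding sequence. Rbp3 (ENSMUSG00000041534) lies on the forward strand of chromosome 14, from 33954003 to 33964216, and has 1 transcript of 5295 bases in 4 exons. Neither Impg2 nor Rbp3 overlaps another annotated gene.

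The sequence just upstream of each start is shown because the 3 genes were all higher at 25 mM glucose and are transcribed in the same cells. The sequences come from RefSeq for GRCm38.p6, read 5′ to 3′ on the strand of each gene, and the window searched was the 250 bases before the start. Capitals mark TAATC or TAATCC, searched on both strands and found here in the reverse complement as GATTA or GGATTA. These letters are the core bound by photoreceptor homeobox factors such as CRX and OTX2. For Impg1 the print stops just before the first base of Impg1-202, the annotated transcript that starts furthest upstream, 43 bases short of the RefSeq start.
Impg1, chr9:80465482-80465688, reverse strand: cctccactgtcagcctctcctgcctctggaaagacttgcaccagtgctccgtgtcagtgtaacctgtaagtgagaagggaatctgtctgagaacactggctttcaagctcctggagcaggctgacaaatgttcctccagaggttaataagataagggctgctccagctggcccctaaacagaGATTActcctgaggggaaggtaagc
Impg2, chr16:56204063-56204312, forward strand: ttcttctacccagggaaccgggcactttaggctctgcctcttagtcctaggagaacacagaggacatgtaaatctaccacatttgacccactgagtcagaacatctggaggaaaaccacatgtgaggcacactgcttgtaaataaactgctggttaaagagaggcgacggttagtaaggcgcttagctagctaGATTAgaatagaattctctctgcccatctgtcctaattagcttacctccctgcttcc
Rbp3, chr14:33953753-33954002, forward strand: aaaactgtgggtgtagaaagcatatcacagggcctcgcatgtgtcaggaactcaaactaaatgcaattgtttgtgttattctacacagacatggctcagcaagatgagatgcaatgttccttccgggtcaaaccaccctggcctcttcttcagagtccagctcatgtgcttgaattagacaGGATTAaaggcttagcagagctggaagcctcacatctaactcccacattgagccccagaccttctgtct

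The Impg1 window held GATTA at positions -68 to -64 and again at -42 to -38, the second beyond the printed stretch, counted from the base before the start as -1. In the Impg2 window it lay at -57 to -53. The Rbp3 window held GGATTA, the reverse complement of TAATCC, at -69 to -64. Of the 32851 promoters in the reference table, 19.8% held TAATC on either strand in the same 250 bases, and TAATCC was found in 6.25%. The core letters bound by NRL and related factors, TGCTGA, were found in the Rbp3 window alone, in reverse complement at -155 to -150, against 16.1% of all promoters. None of the windows held the letters of a GC box, GGGCGG, which 32.7% of all promoters hold. The letters CACGTG of an E-box (6.02% of promoters) and the letters of a TATA box, searched as TATAAA (12.4%), were not found in them either. The GC content of the windows was 50.8% for Impg1 and 46.8% for both Impg2 and Rbp3, against a median of 52.4% over all promoters. These matches describe letters and not binding.

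All 3 genes were higher at 25 mM glucose, Impg2 by 9.75-fold, Impg1 by 5.78-fold and Rbp3 by 2.16-fold. Each had a false discovery rate (FDR) under 0.05 in the quasi-likelihood test of edgeR, Benjamini-Hochberg adjusted over 21061 genes, with technical replicates summed to 3 biological replicates per condition. Over all genes tested, 1.47% were higher and 0.513% lower at 25 mM glucose at this threshold, and the median log2 fold change was -0.01. In bulk samples such as these, fewer cells of a type and less RNA per cell cannot be told apart.

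Impg1 stood at 23.8, 14.7 and 11.8 CPM in replicates 1, 2 and 3 at 5 mM glucose. At 25 mM it stood at 133, 93.3 and 64.6 CPM. The lowest replicate at 25 mM was 2.72 times the highest at 5 mM, so the groups did not overlap. The means were 16.8 ± 6.24 CPM (SD, n = 3) and 96.9 ± 34.3 CPM (SD, n = 3), and the log2 fold change was 2.53 (SE 0.35, FDR 0.0261 by the edgeR test), which ranked 69 among the 21061 genes.

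Impg2 was the more abundant proteoglycan transcript and varied most between replicates at 5 mM, where it stood at 235, 71.9 and 41.8 CPM. At 25 mM glucose the replicates stood at 1558, 1159 and 687 CPM. Here too the groups did not overlap, with the lowest value at 25 mM 2.92 times the highest at 5 mM. The means were 116 ± 104 CPM and 1134 ± 436 CPM (SD, n = 3 each), and the log2 fold change of 3.29 (SE 0.64, FDR 0.0475 by the edgeR test) ranked 12 among the genes tested.

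Rbp3 varied least and changed least. Its replicates stood at 320.3, 358 and 336 CPM at 5 mM and at 913, 578 and 701 CPM at 25 mM glucose. The lowest value at 25 mM was 1.61 times the highest at 5 mM, again without overlap. The mean rose from 338 ± 19.2 CPM to 731 ± 169.6 CPM (SD, n = 3 each), with a log2 fold change of 1.11 (SE 0.21, FDR 0.0456 by the edgeR test), which ranked 1328. With the replicate number as a block, the FDR of Rbp3 was 0.0528 and its log2 fold change 1.09.

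Replicates that do not overlap, with the higher values at 25 mM, were found in 16.0% of all genes tested, so 3 of 3 members without overlap is to be read against that share. A two-sided exact permutation test of each member over the 6 replicates gave p = 0.1, the smallest value that 3 against 3 can give. With the stricter requirement of a fold change over 2 at an FDR under 0.01, edgeR called 0 of the 21061 genes (0%), so none of the 3 members, while 6052 genes had an unadjusted p under 0.05. DESeq2 called 1387 of the 21061 genes under the same requirement, and these included all 3 members. Its log2 fold changes were 2.52 for Impg1 (FDR 2.0e-09), 3.27 for Impg2 (FDR 9.6e-07) and 1.10 for Rbp3 (FDR 0.000214).

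**Figure D1:**
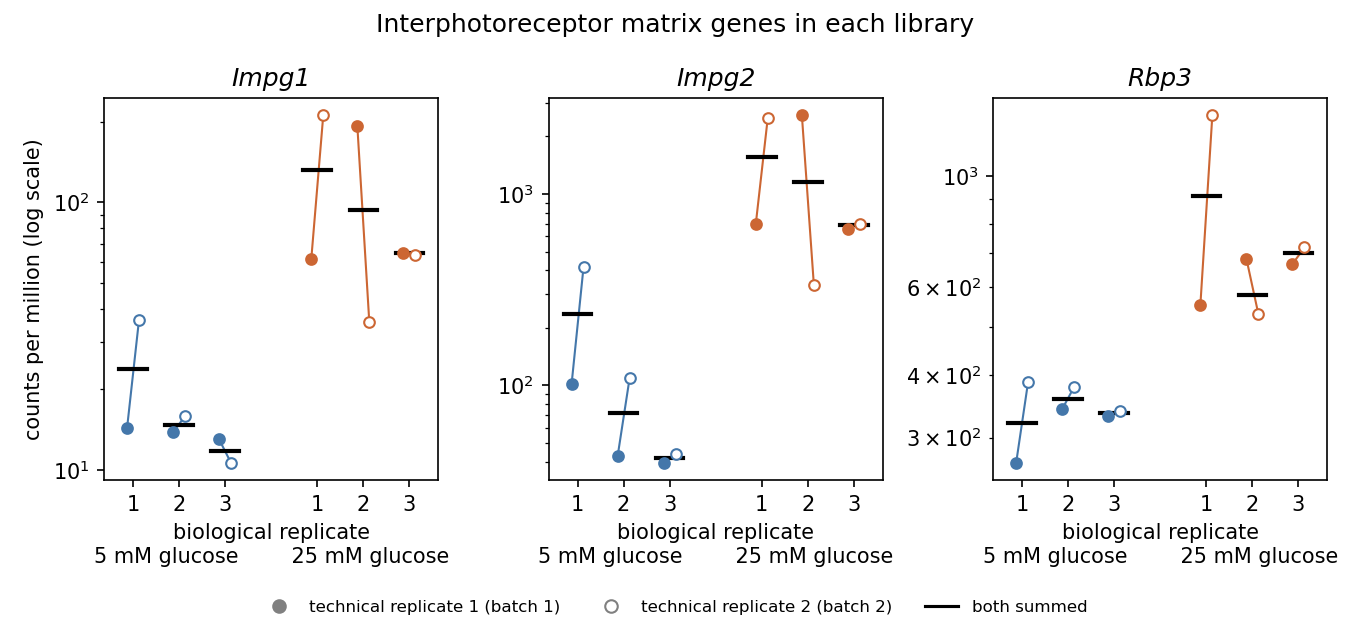
CPM (log scale) of Impg1, Impg2 and Rbp3 in each of the 12 libraries, by biological replicate and glucose concentration. Filled points are technical replicate 1, open points technical replicate 2, and black bars the value with both summed. Each bar at 25 mM lies above each bar at 5 mM, while the technical replicates of Impg1 and Impg2 in replicates 1 and 2 at 25 mM lie far apart.

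Within batches, the size of the difference was less even for the proteoglycan genes than for Rbp3. Impg1 had a log2 fold change of 2.95 in batch 1 and 2.28 in batch 2. The corresponding values for Impg2 were 4.41 and 2.61. For Rbp3 they were 1.01 and 1.21, so all 3 genes were higher at 25 mM in either batch. In batch 1 alone the edgeR FDR was 0.00906 for Impg1, 0.00887 for Impg2 and 0.0190 for Rbp3. There edgeR called 3279 of the 18969 genes tested at an FDR under 0.05. In batch 2 alone the FDRs were 0.392, 0.400 and 0.392, where edgeR called 0 genes and 2203 genes had an unadjusted p under 0.05. The test of the difference between batches, fitted to the 12 libraries with a term for every biological replicate, gave -0.62 for Impg1 (SE 1.02, FDR 0.785), -1.45 for Impg2 (SE 1.17, FDR 0.563) and 0.08 for Rbp3 (SE 0.42, FDR 0.941), so a difference between batches was not detectable with these samples.

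The calls also rested on single replicates and libraries. Without replicate 1 at 5 mM glucose all 3 members had an FDR under 0.05, where edgeR called 5845 of 21945 genes. Without replicate 3 at 25 mM, Impg1 and Impg2 had an FDR under 0.05 and Rbp3 one of 0.0524 by edgeR. In that fit edgeR called 494 of 21769 genes. With any of the other 4 replicates left out, none of the 3 had an FDR under 0.05 and edgeR called 0 genes, with 3813 to 4071 genes at an unadjusted p under 0.05. The log2 fold changes themselves moved less, between 2.24 and 2.87 for Impg1, 2.87 and 4.31 for Impg2, and 0.93 and 1.27 for Rbp3. Without the first technical replicate of replicate 2 at 25 mM, the library rich in mitochondrial counts, the values were 2.22 for Impg1 (FDR 0.129), 2.89 for Impg2 (FDR 0.140) and 1.09 for Rbp3 (FDR 0.129). Without the second technical replicate of replicate 1 at 25 mM they were 2.89 for Impg2 (FDR 0.0635) and 0.87 for Rbp3 (FDR 0.0568).

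**Figure D2:**
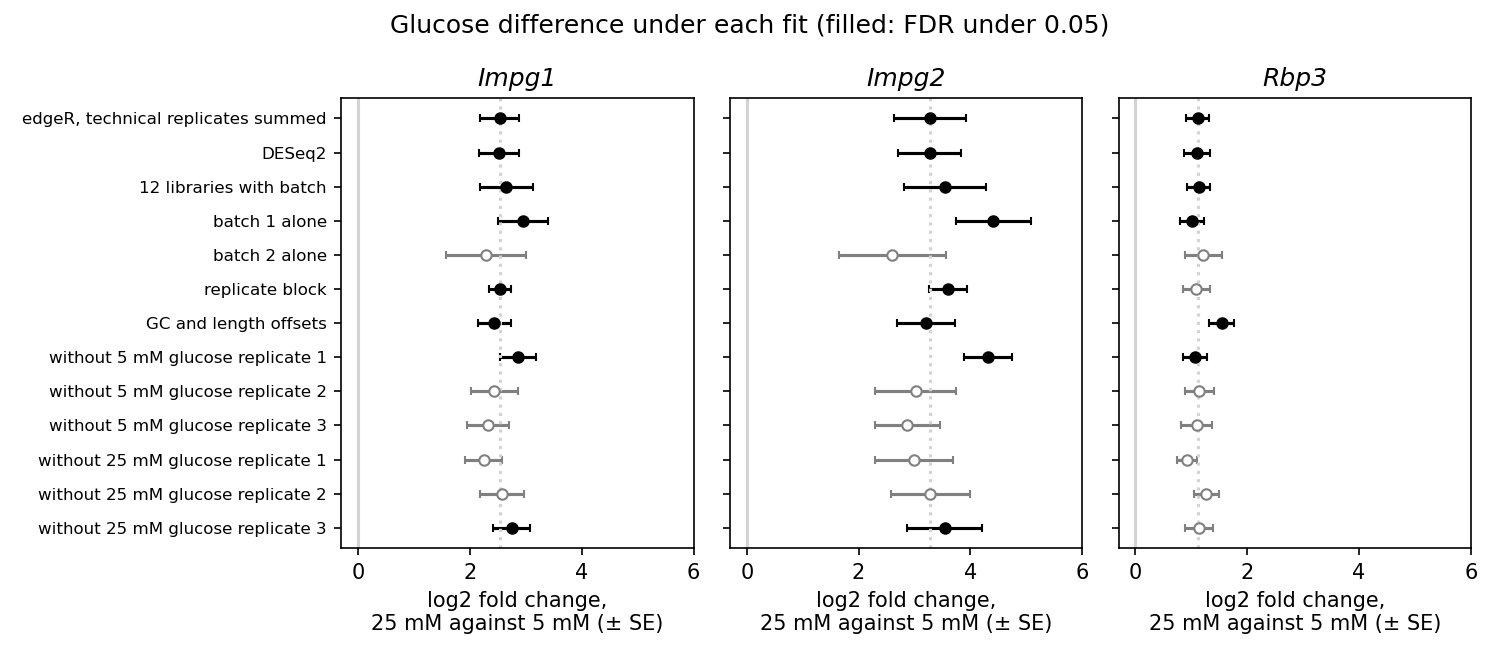
Log2 fold change at 25 mM against 5 mM glucose, with its standard error, for Impg1, Impg2 and Rbp3 under the reported fit and 12 alternatives. Filled points have an FDR under 0.05; every point lies above 0, and the values of Impg2 reach from 2.61 in batch 2 to 4.41 in batch 1.

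Technical replicates of the same biological replicate disagreed more on the proteoglycan genes than on most genes. At 25 mM glucose, replicate 1 gave 61.4 and 212 CPM of Impg1 in its first and second technical replicate, while replicate 2 gave 193 and 35.6 CPM. Impg2 followed the same order, with 699 and 2505 CPM in replicate 1 and 2575 and 335 CPM in replicate 2. In replicate 3 the technical replicates were close, at 64.6 and 63.4 CPM of Impg1 and 659 and 699.6 CPM of Impg2. The second technical replicate was thus the higher one in replicate 1 and the lower one in replicate 2, for both genes.

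At 5 mM glucose the widest pair was replicate 1 for both genes, with 14.3 and 36.3 CPM of Impg1 and 101 and 416 CPM of Impg2. The median absolute log2 difference over the 6 pairs was 0.82 for Impg1, 1.60 for Impg2 and 0.26 for Rbp3, against a median of 0.29 over 10620 genes with a mean of at least 10 CPM. Impg2 stood at the 99.8 percentile of these genes, Impg1 at the 93.4 and Rbp3 at the 43.2. The largest difference within a pair was 7.68-fold for Impg2, 5.41-fold for Impg1 and 2.39-fold for Rbp3.

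Library by library, the groups of Impg1 and Impg2 met at their edges. Impg1 ranged from 10.6 to 36.3 CPM at 5 mM, with a median of 14.0, and from 35.6 to 212 CPM at 25 mM, with a median of 64.0. Impg2 ranged from 39.3 to 416 CPM (median 72.7) at 5 mM and from 335 to 2575 CPM (median 699) at 25 mM. In both genes the lowest library at 25 mM, the second technical replicate of replicate 2, fell below the highest at 5 mM, the second technical replicate of replicate 1. The libraries of Rbp3 did not overlap, with 267 to 387 CPM (median 341) at 5 mM and 529 to 1321 CPM (median 675) at 25 mM.

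The proteoglycan transcripts are poorer in G and C than that of Rbp3. The most abundant transcript had a GC content of 45.3% for Impg1, 42.4% for Impg2 and 55.7% for Rbp3, which are the 30.2, 14.8 and 86.9 percentiles of the 10620 genes. With offsets fitted to GC content and transcript length in each library, the log2 fold changes were 2.44 for Impg1, 3.21 for Impg2 and 1.54 for Rbp3, all with an FDR under 0.05 by edgeR. In this fit edgeR called 2940 of the 20301 genes tested at that FDR, against 417 of 21061 without the offsets.

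Levels of different genes can be compared only per length, here as TPM, in which transcript counts are divided by annotated transcript length and scaled to a common total. At 5 mM glucose the order was Rbp3 with 120.2 ± 11.6 TPM, Impg2 with 36.4 ± 29.5 TPM and Impg1 with 10.1 ± 3.34 TPM (SD, n = 3 each). The replicates of Rbp3 lay above all those of Impg2, and those of Impg2 (14.4 to 70.0 TPM) above those of Impg1 (7.16 to 13.7 TPM). At 25 mM glucose Impg2 had 387 ± 174 TPM, Rbp3 285 ± 89.6 TPM and Impg1 63.5 ± 26.1 TPM. Impg2 and Rbp3 no longer differed beyond their spread, since Impg2 was higher in replicates 1 and 2 and Rbp3 in replicate 3, at 234 against 271 TPM. By mean TPM, Impg2 stood at rank 5064 of 30689 genes with counts at 5 mM and at rank 269 of 30884 at 25 mM. Rbp3 went from rank 1376 to 404 and Impg1 from rank 10054 to 3060.

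Whether the 3 genes differed from each other in their response was examined through the log2 ratio of one to another within a replicate, for 3 pairs. The log2 ratio of Impg2 to Impg1 was 3.31, 2.28 and 1.82 in the 3 replicates at 5 mM and 3.55, 3.63 and 3.41 at 25 mM glucose, a difference of 1.06 (SE 0.44). The ratio of Impg1 to Rbp3 differed by 1.44 (SE 0.41), from a mean of -4.39 to -2.95. That of Impg2 to Rbp3 differed by 2.50 (SE 0.83), from -1.92 to 0.58. For each pair the replicates at 25 mM lay above those at 5 mM, and the two-sided exact permutation test gave p = 0.1, the smallest it can give, also after adjustment over the 3 pairs. How many other pairs of genes separate in this way was not counted. In batch 2 alone the 3 differences were 0.64, 0.98 and 1.62, with an exact permutation p of 0.3 each, and in batch 1 alone 1.52, 1.71 and 3.23. The ratios were taken without the offsets for GC content and length. With these offsets the log2 fold change of Rbp3 was 1.54 against 1.11, and those of Impg1 and Impg2 were 2.44 and 3.21.

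Photoreceptors make all 3 proteins, so the members were set beside 16 rod photoreceptor markers, among them the rod transducin gene Gnat1. The mean log2 CPM of the rod markers was 7.32, 7.75 and 7.63 at 5 mM and 8.76, 8.43 and 8.59 at 25 mM glucose, a difference of 1.03 (SE 0.16). Log2 fold changes lay above 0 for 16 of 16 rod markers, with a median of 1.02, and 7 of them had an FDR under 0.05 (Nrl, Nr2e3, Pde6a, Pde6b, Cnga1, Prph2 and Crx). Gnat1, one of the most abundant rod markers, did not pass the test, with a log2 fold change of 0.45 (FDR 0.308 by edgeR).

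Relative to the rod marker mean of the same replicate, Rbp3 stood at 1.00, 0.74 and 0.76 log2 units at 5 mM and at 1.07, 0.74 and 0.87 at 25 mM glucose. These values overlapped, and their means differed by 0.06 (SE 0.13; two-sided exact permutation p = 0.6). Impg1 stood at -2.75, -3.86 and -4.07 at 5 mM and at -1.71, -1.89 and -2.57 at 25 mM, a difference of 1.50 (SE 0.49; exact permutation p = 0.1). Impg2 moved from 0.56, -1.58 and -2.24 to 1.84, 1.75 and 0.84, a difference of 2.56 (SE 0.90; exact permutation p = 0.1). Every replicate of Impg1 and Impg2 at 25 mM glucose thus stood higher against the rod marker mean than every replicate at 5 mM, which was not so for Rbp3. How many other genes separate from the rod marker mean in this way was not counted. In batch 2 alone the differences for Impg1 and Impg2 were 1.08 and 1.73 (exact permutation p = 0.3 each). The offsets for GC content and length were not applied here either.

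**Figure D3:**
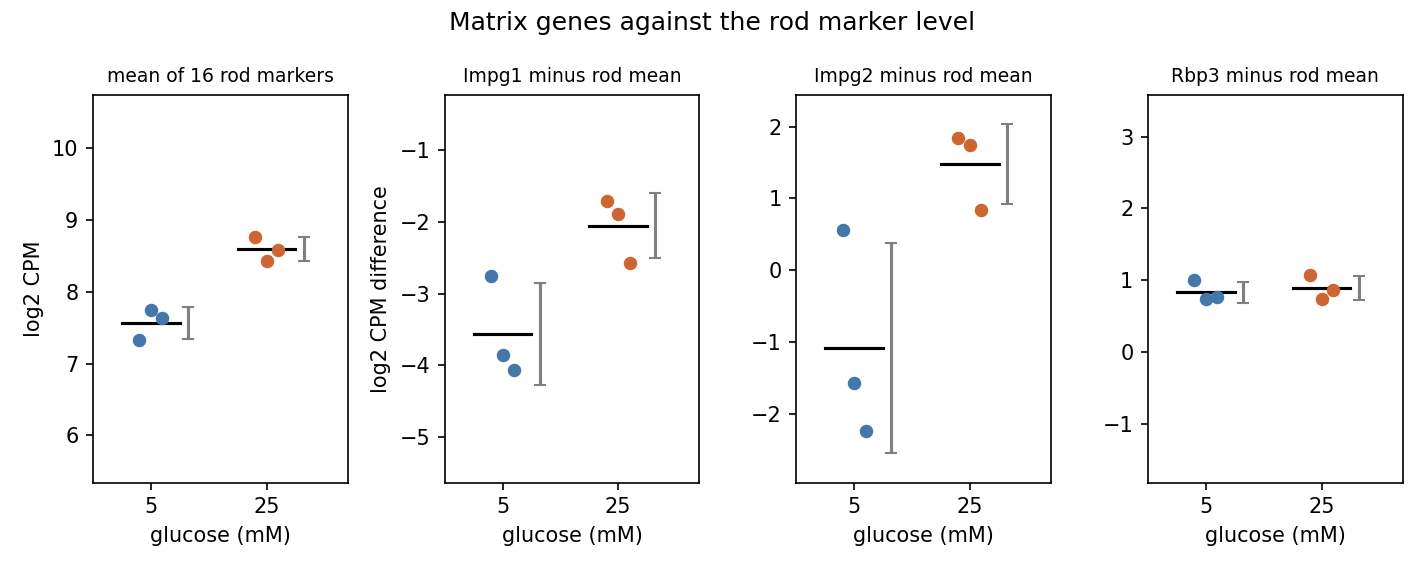
The mean log2 CPM of 16 rod markers (left) and the log2 CPM of Impg1, Impg2 and Rbp3 minus that mean, for each of the 3 replicates at 5 mM and 25 mM glucose. Bars are means and whiskers SD, and each panel spans the same number of log2 units; Rbp3 moved by 0.06 against the rod mean, Impg1 by 1.50 and Impg2 by 2.56.

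Markers of the other cell types of the explant had list medians between -2.01 and 0.37 on the log2 scale. Counts per list are to be read against all 21061 genes, of which 6052 had an unadjusted p under 0.05 in either direction. DESeq2 called 1480 of the 21061 higher and 2009 lower. Of the 10 cone markers 1 was called higher (Opn1mw, the gene of the middle-wavelength opsin, from 1.24 to 4.18 CPM) and 0 lower by edgeR, with 3 higher and 1 lower both at an unadjusted p under 0.05 and by DESeq2. Log2 fold changes lay below 0 for 4 of the 10, among them the short-wavelength opsin gene Opn1sw, with 2.76 CPM at 5 mM and 1.36 CPM at 25 mM (log2 fold change -1.01, FDR 0.0704 by edgeR). For vascular cells 9 of 10 markers were below 0, with a median of -2.01 and a summed level of 1126 to 1957 CPM at 5 mM and 599 to 1027 CPM at 25 mM glucose. All 10 microglia markers were below 0 as well, with a median of -1.14 and summed levels of 303 to 443 CPM and 127 to 254 CPM. Mueller glia, bipolar, and amacrine and ganglion cell markers had medians of -0.27, 0.12 and -0.11, with 2, 3 and 0 higher and 3, 3 and 3 lower at an unadjusted p under 0.05, of which DESeq2 called 0, 1 and 0 higher and 2, 2 and 3 lower. None of the markers in these 5 lists had an FDR under 0.05 by edgeR, but 8 vascular and 7 microglia markers were lower at an unadjusted p under 0.05, and DESeq2 called 8 and 4 of them lower. The part of these shifts in the results for Impg1, Impg2 and Rbp3 was not tested.

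Pigment epithelium, which borders the matrix on its other side and was removed at dissection, left little signal. Its markers summed to 9.32 to 12.7 CPM at 5 mM and 7.06 to 8.98 CPM at 25 mM glucose, and 4 of 12 (Rpe65, Pmel, Mlana and Slc45a2) were too low to be tested. The median over the 8 tested was -0.51, and edgeR called 0 in either direction, with 1 higher and 1 lower at an unadjusted p under 0.05 and by DESeq2. The median over the 13 mitochondrial genes was 0.29, with 0 called by edgeR or DESeq2 and 0 at an unadjusted p under 0.05.

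Log2 fold changes follow for the most abundant markers of each list, where these did not pass the test. The values were 0.70 for Pde6c and -0.10 for Gnb3 of the cone list, and -0.35 for Glul and -1.51 for Vim of the Mueller glia list. They were -0.04 for Trpm1 and -0.79 for Prkca in bipolar cells, -0.29 for Pax6 and 0.17 for Nefl in amacrine and ganglion cells, and -1.94 for Pecam1 and 0.09 for Rgs5 in vascular cells. The last were -1.09 for C1qb in microglia, -0.43 for Rdh5 and -0.58 for Dct in pigment epithelium, and 0.29 for mt-Co1 and 0.25 for mt-Cytb. The pigment epithelium markers were low, with Rdh5 at 3.36 CPM at 5 mM and 2.50 CPM at 25 mM glucose. The log2 fold changes of Impg1 and Impg2 lay above those of all 16 rod markers, the highest being 2.12 for Cnga1. Among photoreceptor genes picked further below for a pattern like that of a member, Rp1 (3.44) and Gucy2f (3.13) lay above Impg1. Grk1 (2.16) and Rp1l1 (1.39) lay below it. Having been picked from these same data, they do not show how other photoreceptor genes behave.

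In the transcript table, the shares of the Impg1 transcripts in the summed replicates did not overlap between the conditions. How often the shares of other genes separate in this way was not counted. Impg1-201 has 16 exons and 721 codons and a longer last exon, of which 665 bases belong to no other transcript. Impg1-202 has 17 exons and 798 codons and contains an exon of 231 bases (chromosome 9, 80440653 to 80440883) that the others lack. Impg1-203 is a fragment of 796 bases with no bases of its own.

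Impg1-201 held 64.2%, 77.9% and 89.1% of the Impg1 counts in replicates 1, 2 and 3 at 5 mM glucose. At 25 mM it held 39.7%, 44.2% and 58.5%. The groups did not overlap, with means of 77.1 ± 12.5% and 47.4 ± 9.81% (SD, n = 3 each; two-sided exact permutation p = 0.1, the smallest possible). The share of Impg1-202 went from 22.5 ± 11.8% to 50.6 ± 9.27%. Both transcripts had positive log2 fold changes, 1.63 (SE 0.22) for Impg1-201 and 3.39 (SE 0.73) for Impg1-202.

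Within a condition, the share of Impg1-201 was lowest in the libraries with the most Impg1. At 25 mM glucose it was 37.6% and 37.4% in the libraries with 212 and 193 CPM of Impg1, and 63.7% in the library with 35.6 CPM. Level and share did not go together throughout, since the libraries of replicate 3, with 64.6 and 63.4 CPM, had 48.0% and 66.6%. At 5 mM the share was lowest, at 58.3%, in the library with the highest Impg1 level, 36.3 CPM. Library by library the groups overlapped, from 58.3% to 89.8% at 5 mM and from 37.4% to 66.6% at 25 mM. The difference between the means was -40.4 percentage points in batch 1 and -14.5 in batch 2, with an exact permutation p of 0.1 and 0.5. The split between Impg1-201 and Impg1-202 is an estimate that rests on the bases in which they differ.

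**Figure D4:**
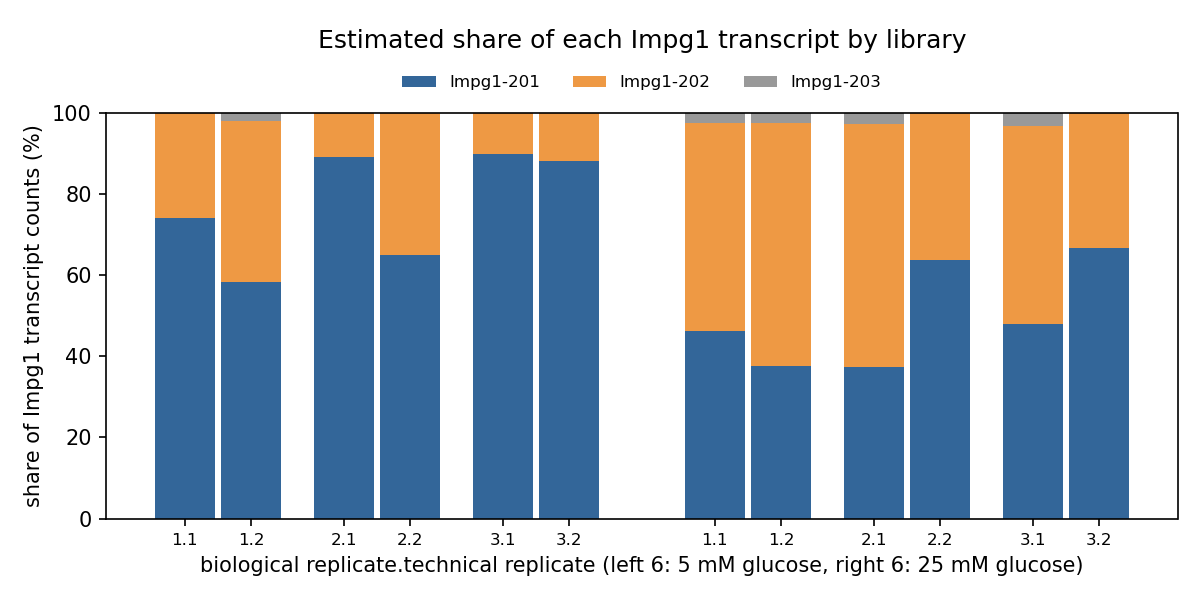
Share of the estimated Impg1 transcript counts (%) held by Impg1-201, Impg1-202 and Impg1-203 in each of the 12 libraries, 5 mM glucose on the left and 25 mM on the right. Impg1-201 held 58.3% to 89.8% at 5 mM and 37.4% to 66.6% at 25 mM.

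For Impg2, the mean shares of the coding transcripts differed by less than the spread of the replicates. Impg2-202, with 20 exons and 6890 bases, held 88.9 ± 7.46% of its counts at 5 mM and 87.8 ± 3.63% at 25 mM glucose (SD, n = 3 each; exact permutation p = 0.9). Impg2-204, a shorter coding transcript of 3992 bases, held 9.71 ± 7.20% and 10.2 ± 3.71%. The non-coding Impg2-201 and Impg2-203 together held 1.35 ± 0.374% and 1.91 ± 0.398% (exact permutation p = 0.2). Log2 fold changes were 3.17 (SE 0.64) for Impg2-202, 2.88 (SE 1.03) for Impg2-204, 3.37 (SE 0.70) for Impg2-201 and 3.55 (SE 1.42) for Impg2-203. Rbp3-201, the one transcript of its gene, had a log2 fold change of 1.05 (SE 0.20).

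No single transcript passed the adjusted test. Over 64990 transcripts, edgeR called 0 at an FDR under 0.05 (0% higher), while 10668 had an unadjusted p under 0.05 and the lowest FDR was 0.0762. The 8 transcripts of the members had FDRs from 0.192 for Impg1-201 to 0.293 for Impg2-203.

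The lists of other genes of the matrix and of retinoid handling had medians below 0, though single genes in them were higher. Over all 21061 genes tested, edgeR called 1.47% higher and 0.513% lower, and DESeq2 called 1480 higher and 2009 lower. An unadjusted p under 0.05 was found for 6052 of them in either direction. Over the 16 tested of 18 hyaluronan synthases, binding proteins and proteoglycans, the median was -0.46 on the log2 scale. At an unadjusted p under 0.05, 2 were higher and 6 lower, and DESeq2 called 2 higher and 6 lower. By edgeR, 1 was higher and 0 lower. The one called was Bcan, a brain chondroitin sulphate proteoglycan at a low level, with 0.374 ± 0.108 CPM at 5 mM and 1.31 ± 0.231 CPM at 25 mM glucose (log2 fold change 1.81, FDR 0.0460 by edgeR). The abundant members were the hyaluronan receptor Cd44 at -0.01 (FDR 0.987) and the proteoglycan Vcan at -1.43 (FDR 0.0838). Enzymes of chondroitin sulphate and O-glycan synthesis, which build the sugar chains of proteoglycans, had a median of -0.60 over 21 tested of 22, with 0 called in either direction by edgeR, 2 higher and 7 lower at an unadjusted p under 0.05, and 1 higher and 2 lower by DESeq2. Its most abundant members were Fam20b at -0.22 and Ugdh at -0.24.

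The median over 7 other secreted proteins of the retinal matrix was -0.05. At an unadjusted p under 0.05, 3 were higher and 2 lower, and DESeq2 called 3 higher and 1 lower. By edgeR, 3 were higher at 25 mM glucose and 0 lower, against 1.47% and 0.513% of all genes tested. Among those called by edgeR were Egflam, the gene of pikachurin at the photoreceptor synapse (log2 fold change 1.41, FDR 0.0330 by edgeR), and Vtn, the gene of vitronectin (1.32, FDR 0.0475). Timp3, the most abundant of the 7 at 5 mM, stood at 260 ± 37.7 and 251 ± 59.3 CPM.

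Retinoid carriers and visual cycle enzymes had a median of -0.11 over 16 tested of 17. At an unadjusted p under 0.05, 5 were higher and 2 lower, and DESeq2 called 4 higher and 0 lower. By edgeR, 3 were higher and 0 lower, against 1.47% and 0.513% of all genes tested. The 3 act in photoreceptor outer or inner segments: the retinoid transporter Abca4 (1.96, FDR 0.0217 by edgeR), and the retinol dehydrogenases Rdh8 (2.10, FDR 0.0271) and Rdh12 (0.97, FDR 0.0359). Carriers of Mueller glia include Rlbp1, which did not pass the test, with 303 ± 57.7 CPM at 5 mM and 242 ± 24.3 CPM at 25 mM glucose. The log2 fold change of Rbp3, 1.11, lay between those of Rdh12 and Abca4.

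**Figure D5:**
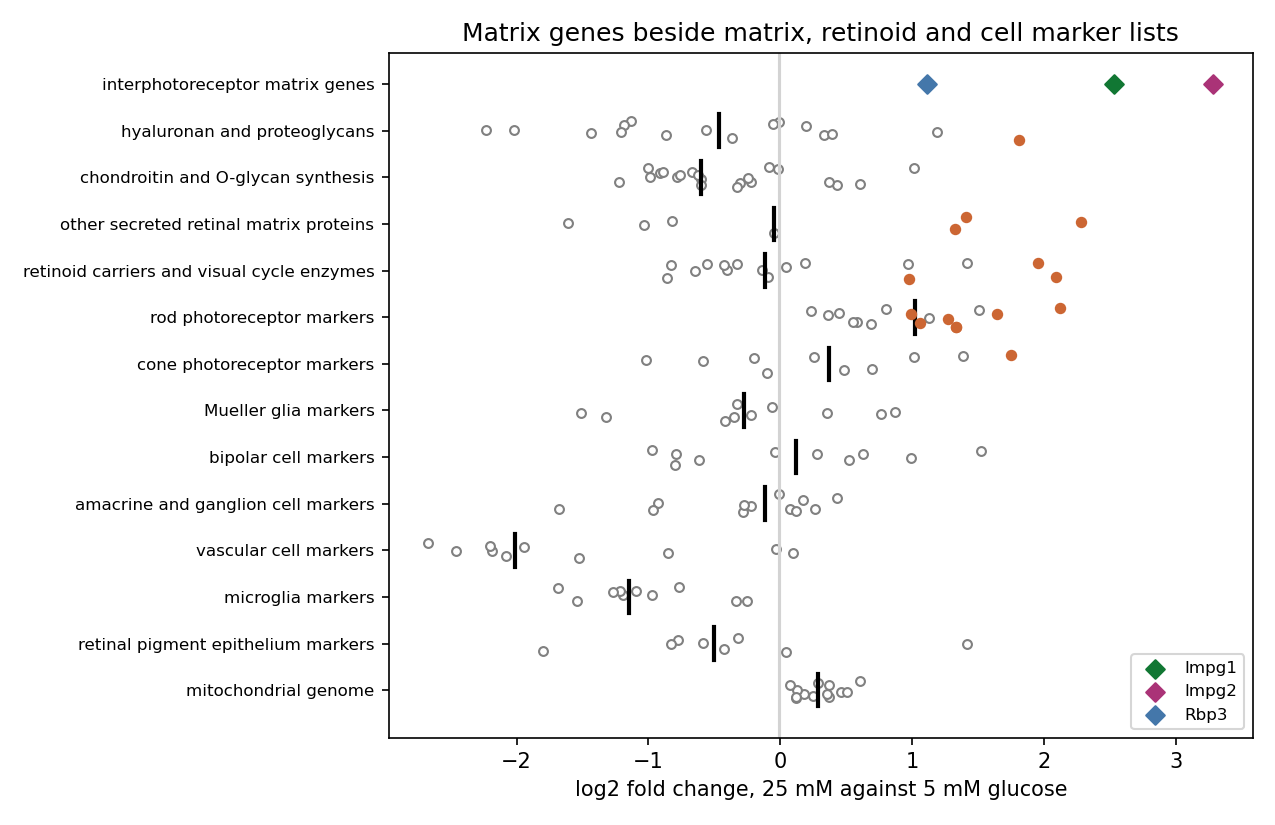
Log2 fold change at 25 mM against 5 mM glucose of Impg1, Impg2 and Rbp3 (diamonds) and of the tested genes in 13 lists. Filled circles have an FDR under 0.05, open circles do not, black bars are list medians and the grey line is the median of all genes tested, -0.01; the rod markers have the highest median, 1.02.

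Likeness of pattern was measured as the Pearson correlation of log2 CPM over the 12 libraries after each condition's mean was removed, among 10620 genes; libraries of 1 biological replicate share their source, so these are descriptions. Impg1 and Impg2 followed each other within conditions with r = 0.93. Their correlations with Rbp3 were lower, 0.70 for Impg1 and 0.54 for Impg2. Among the 5 closest to Impg1 were Bbs7 (r = 0.975), a subunit of the ciliary BBSome, Chfr (0.974), the photoreceptor kinase gene Grk1 (0.970) and A930003O13Rik (0.970). For Impg2 the closest were the retinal guanylate cyclase gene Gucy2f (0.987), the photoreceptor axoneme gene Rp1 (0.979), Lrrc2 (0.974), Gm49602 (0.965) and Ankrd26 (0.964). Among the 5 closest to Rbp3 were Rp1l1 (0.930), a relative of Rp1, the transcriptional repressor gene Bcl6 (0.930), Mreg (0.924) and Mrgbp (0.905). With the condition means left in, the correlations with the members were 0.962 to 0.991 for the genes closest to Impg1, 0.964 to 0.996 for Impg2 and 0.799 to 0.981 for Rbp3. GC content of the 5 genes closest to Impg2 was 38.2% to 43.9% and of the 5 closest to Rbp3 49.0% to 55.2%, on either side of the median of 48.6% over all 10620 genes. The part of base composition in these likenesses was not tested.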

How the data were processed

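RNA was measured in 12 libraries of mouse retinal explants. The kit was stranded, for low amounts of total RNA, and reads were paired. The deposited values are estimated counts per gene and per transcript that the authors made from the reads, without normalization between libraries; the counting tool is not given in the sources used here, the labels name GRCm38, and whether counting used strand is not stated. Values were rounded after technical replicates were summed, and 0 columns were left unused. Summed totals were 37944826 to 60098862 per replicate. Intervals of counting error were not used, because amplified read pairs are not independent molecules and the spread between replicates was larger. Counts in the gene table were 0.796 to 1.11 times the per-gene sums of the transcript table for the 3 genes.

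Counts were scaled by TMM, filtered with filterByExpr and compared by the quasi-likelihood test of edgeR 4.0.16 (R 4.3.3), with no block and with p-values adjusted (Benjamini-Hochberg) over 21061 genes. Standard errors were derived from the F statistic, and log2 CPM used a prior count of 2. Single values were compared by exact permutation tests in scipy 1.17.1. The procedure was tested on simulated data. Positions, transcripts and lengths came from GENCODE M21 (GRCm38), and 1 listed gene, Tmem2, was found under its newer symbol Cemip2.

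The members, the 13 lists and the tests were chosen with earlier results of these data known. Genes named were the 3 members, those called in the first 4 lists, the most abundant of each list by CPM and the 5 genes most like each member. Cnga1, the other called rod markers and both cone opsin genes were named after their values were seen. Alternatives covered DESeq2 1.42.0, RLE factors, library totals, low-count filters, 12 libraries with batch, each batch, a replicate block, GC and length offsets, summed transcript counts and replicates left out. Leaving out single libraries, the batch interaction, the Impg1-201 share and the comparison with rod markers were added after seeing the data. Some genes that this rule names are not reported here.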

Additional observations from a re-analysis of the deposited data

Results flagged for a closer look

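By Dixon's test at its 95% critical value, 4 of 10 groups of 6 libraries held a library far from the others, where chance gives about 1 in 20 groups; the groups are not independent, since libraries share biological replicates and genes.

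At 5 mM glucose the second technical replicate of replicate 1 stood apart, with 36.3 CPM of Impg1 and 416 CPM of Impg2. With this library left out, the log2 fold changes kept their side of the FDR threshold of 0.05 for all 3 genes. At 25 mM the second technical replicate of replicate 1 stood apart for Rbp3, with 1321 CPM. The share of non-coding Impg2 transcripts was 2.47% in the first technical replicate of replicate 2 at 25 mM glucose, above the other libraries of its group.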

How the results depend on the processing

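The log2 fold changes of Impg1, Impg2 and Rbp3 were above 0 in all 23 fits, at 2.14 to 2.95, 2.61 to 4.41 and 0.87 to 1.56. Their FDR stayed under 0.05 in 17, 15 and 13 of these fits and ranged up to 0.392, 0.400 and 0.392. The calls were lost in batch 2 alone (2.28, 2.61 and 1.21) and without the first technical replicate of replicate 2 at 25 mM (2.22, 2.89 and 1.09, FDR 0.129, 0.140 and 0.129). Impg2 and Rbp3 also lost theirs without the second technical replicate of replicate 1 at 25 mM (2.89 and 0.87, FDR 0.0635 and 0.0568) or of replicate 2 at 25 mM (3.78 and 1.17, FDR 0.0628 and 0.0519). The cause was not tested. With each biological replicate left out in turn, the ranges were 2.24 to 2.87 for Impg1 (FDR 0.00791 to 0.159), 2.87 to 4.31 for Impg2 (FDR 0.00791 to 0.162) and 0.93 to 1.27 for Rbp3 (FDR 0.0162 to 0.183). Relative to the rod markers, the difference of Rbp3 turned to -0.019 in batch 1 alone and ranged from -0.029 (without replicate 1 at 25 mM) to 0.14 with a replicate left out.

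Counts of genes with an FDR under 0.05 depended strongly on the fit. Against 417 as reported they were 3489 with DESeq2, 1979 without the filter, 2918 with 12 libraries and batch, 3279 in batch 1, 0 in batch 2, 2940 with GC and length offsets, 3213 with these and the replicate block, and 0 to 5845 with a replicate left out. Without single libraries they were 1731 (5 mM replicate 1, second), 194 (25 mM replicate 1, second), 0 (25 mM replicate 2, first) and 169 (25 mM replicate 2, second). With the stricter thresholds, against 0, they were 1387, 275, 109 and 367 in the first 4 of these fits, 120 with the offsets, 515 with the block as well, 0 to 108 with a replicate left out, and 56 without the second library of 5 mM replicate 1. Of the called genes 74.1% were higher at 25 mM as reported, but 83.7% with library totals, 42.4% with DESeq2 and 43.8% with the offsets.

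Whether replicate numbers shared between conditions pair the samples is not stated. Same-numbered deviations correlated at -0.01, -0.45 and 0.28, and differently numbered ones at -0.42 to 0.51. With 3 replicates per condition these correlations depend on each other and cannot decide it. The replicate block gave 990 calls, of which 40.9% were higher, log2 fold changes of 2.53 (FDR 0.0130), 3.60 (FDR 0.0134) and 1.09 (FDR 0.0528) for Impg1, Impg2 and Rbp3, and an exact sign-flip p of 0.25, the smallest possible, for each ratio between members. No retained-intron transcript is annotated for the members, so the share of such transcripts has no value.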
